A study of Mus musculus with 20 samples.

Results

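The SR family of splicing factors was followed here through 10 genes, Srsf1, Srsf2, Srsf3, Srsf4, Srsf5, Srsf6, Srsf7, Srsf9, Srsf10 and Srsf11, of 42890 genes with a value in mouse abdominal aorta. They were chosen by name as a family, with earlier results of these data known; which measured values led to the choice is not recorded. Each gene's level is the sum of its annotated transcript models, split into protein-coding models and noncoding ones. The 10 SR genes have 70 models in these data, 24 of them coding and 46 noncoding, namely 21 retained intron, 13 nonsense-mediated decay and 12 processed transcript models. Srsf7 has 1 model, which is coding, so that 9 genes have both kinds. In mm10 the SR genes lie on several chromosomes, given here with the strand. The first 5 are Srsf1 at chr11:88047373-88053755 (plus), Srsf2 at chr11:116849901-116853094 (minus), Srsf3 at chr17:29032628-29043373 (plus), Srsf4 at chr4:131873617-131901706 (plus) and Srsf5 at chr12:80945504-80950507 (plus). The others are Srsf6 at chr2:162931528-162937121 (plus), Srsf7 at chr17:80200080-80207305 (minus), Srsf9 at chr5:115327177-115333080 (plus), Srsf10 at chr4:135855747-135869908 (plus) and Srsf11 at chr3:158010473-158036639 (minus).

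Rab22a encodes a GTPase of early and recycling endosomes. Angiotensin II (AngII), the effector peptide of the renin system, acts on vessels as a constrictor and is infused in mice to provoke hypertension and aortic disease. RNA sequencing of ribosomal RNA-depleted total RNA covered 20 libraries, each from the abdominal aorta of 1 C57BL/6 mouse. In these, 5 wild type and 5 Rab22a knockout mice received saline, and 5 of each genotype received AngII. AngII was given at 500 ng/kg/min, and both agents for 14 days. The labels name neither a Cre driver nor the deleted part of Rab22a, and give no sex, age or batch.

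SR proteins carry RNA recognition motifs and a domain rich in alternating arginine and serine. They bind exonic splicing enhancers and help the spliceosome to choose splice sites, and they are moved and activated by phosphorylation of that domain. Many SR genes limit their own expression: when the protein is abundant, an intron is kept or a "poison" exon with an early stop codon is included, and the transcript is degraded by nonsense-mediated decay or kept in the nucleus.

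Stretches of noncoding models that the main coding model of the gene lacks are shown first, because the split into coding and noncoding levels below turns in part on such stretches. They were read from GENCODE M21 transcripts (GRCm38, mm10). Each of the following sequences starts at the first base of an exon that the gene's main coding model skips and ends with the stop codon, in capitals, at which the reading frame of that decay model closes.
Srsf3-201, chr17:29039454-29039487, plus strand: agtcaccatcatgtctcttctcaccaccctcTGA
Srsf4-203, chr4:131884276-131884390, plus strand: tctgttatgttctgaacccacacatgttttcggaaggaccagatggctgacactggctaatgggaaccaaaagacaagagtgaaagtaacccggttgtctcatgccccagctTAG
Srsf6-201, chr2:162932815-162932966, plus strand: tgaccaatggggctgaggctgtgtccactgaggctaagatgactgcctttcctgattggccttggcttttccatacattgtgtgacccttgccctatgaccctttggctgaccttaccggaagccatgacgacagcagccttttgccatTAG
Srsf9-205, chr5:115328347-115328428, plus strand: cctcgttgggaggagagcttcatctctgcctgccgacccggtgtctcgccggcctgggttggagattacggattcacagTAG
Srsf11-206, chr3:158024209-158024231, minus strand: ttcttttccctggttcagccTGA
These exons are 456 bases long in Srsf3, 207 in Srsf4, 268 in Srsf6, 358 in Srsf9 and 109 in Srsf11, so the printed part is their beginning. The printed part of Srsf6-201 also lies in exons of another coding model, and only the 103 bases at chr2:162932980-162933082, later in the same exon, are outside all coding exons.

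Retained intron models keep a stretch between coding exons. Read on from the start codon of the main coding model, the intron that Srsf3-204 keeps (2150 bases) closes the frame after 49 bases, and the one that Srsf5-212 keeps (1229 bases) after 9. The stop is again in capitals.
Srsf3-204, chr17:29038625-29038673, plus strand: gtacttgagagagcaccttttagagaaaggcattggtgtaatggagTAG
Srsf5-212, chr12:80947866-80947874, plus strand: gtttgtTGA
Srsf4-201 is also annotated as a retained intron model, but it differs from the coding model Srsf4-202 in its first exon alone. That exon has 1097 bases in Srsf4-201 and 254 in Srsf4-202, and the other 5 exons are shared. The joints of the first exon (15 bases, capitals) with the second (15 bases, starting at chr4:131891207) show where the 2 models part.
Srsf4-202: GGATCTGAAGAACGGgtatggctttgtgga
Srsf4-201: AGTTGTAGGACAAAGgtatggctttgtgga

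Coding and noncoding models of one SR gene share exons to differing extents, and reads in shared exons were divided between them before deposit by a method that is not given in the sources used here. Of the bases of Srsf6-201, 93.8% lie in exons of coding models, and the share is 64.6% for Srsf4-201, 54.8% for Srsf5-212 and 36.6% for Srsf3-204. It is 100% for Srsf2-204, a decay model not shown above, which had a mean of 2.24 FPKM. Over all 20 libraries, coding models held 77.2% of the FPKM of the 10 genes (69.1% to 82.7% per library), retained intron models 13.6%, decay models 5.56% and processed transcripts 3.56%. Of the models shown above, Srsf6-201 was the only decay model with a mean of at least 1 FPKM, at 4.61. The poison exon models Srsf3-201, Srsf4-203, Srsf9-205 and Srsf11-206 had means of 0.187, 0.558, 0.557 and 0.669 FPKM.

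The libraries corresponded to 68748128 to 77391217 reads each, and each SR gene to between 314 and 9158 reads in a library. The full-length coding model Rab22a-201 stood at 1.87 to 8.62 FPKM in the 10 wild type libraries, and at no more than 0.00563 in the 10 knockout libraries, while the decay model Rab22a-203 stood at 0.162 to 3.61 in wild type and 7.43 to 11.1 in knockout libraries. Transcript models above 0 numbered 81734 to 92523 in wild type and 74093 to 83057 in knockout libraries. Markers of smooth muscle, endothelium and adventitial fibroblasts were present in all libraries. Skeletal muscle markers ranged from 3.81 to 6273.95 FPKM in sum, and lymphocyte markers, described with the SR genes below, also varied widely.

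In wild type mice given saline, Srsf5 was the most abundant SR gene at 36.4 ± 8.96 FPKM (SD, n = 5), a length-scaled level. Srsf6 followed at 26.6 ± 7.09, Srsf3 at 25.7 ± 3.85, Srsf10 at 22.2 ± 4.29 and Srsf4 at 20.9 ± 10.6 FPKM. The lower members were Srsf9 (14.95 ± 11.2), Srsf2 (14.1 ± 2.92), Srsf11 (13.5 ± 2.97), Srsf1 (9.43 ± 4.18) and Srsf7 (6.27 ± 2.38). Srsf5 stood further from its neighbour in this order than the larger of the 2 SDs, and no other neighbours did. Srsf7 was the lowest and Srsf5 the highest in each of the 4 groups.

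The SR genes differed in how evenly they were expressed over the 20 libraries. The 4 groups were pooled here, so differences between groups are part of this spread. Over the 20 libraries the coefficient of variation was 20.4% for Srsf10, 20.5% for Srsf3 and 22.4% for Srsf5, while it was 56.3% for Srsf1, 68.1% for Srsf9 and 77.4% for Srsf4. Among 6668 tested genes whose mean lay in the range of the SR genes, the median was 25.4% and the 90th percentile 63.9%.

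**Figure D1:**
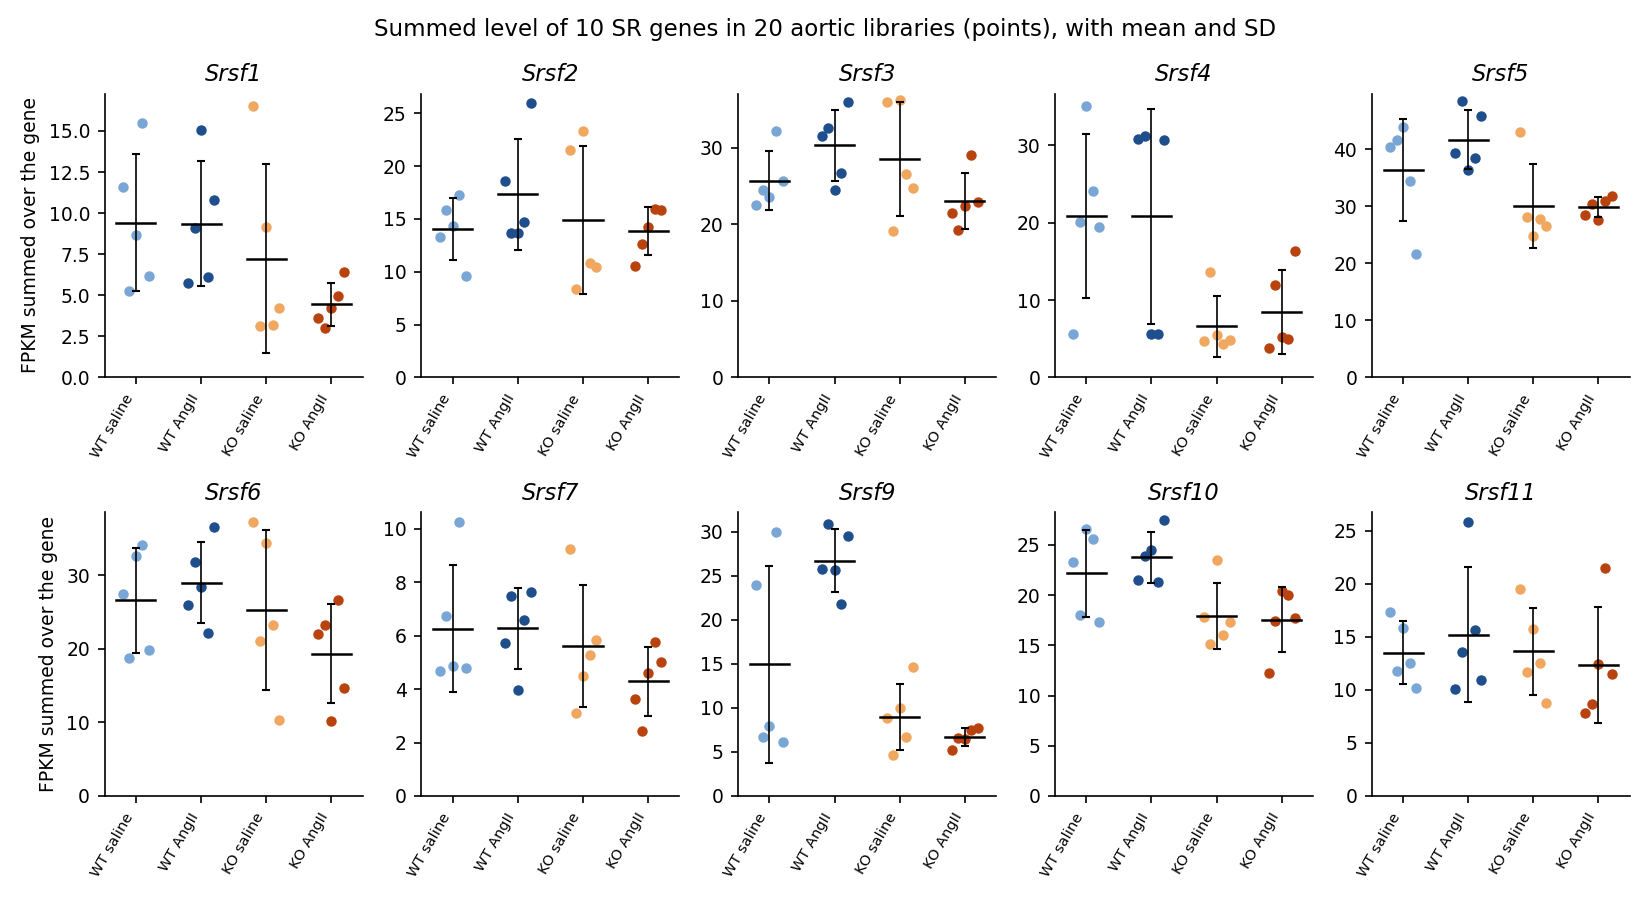
Summed FPKM of each SR gene (y axis, from 0) in the 4 groups (x axis), 1 point per mouse, with a bar at the mean and whiskers of 1 SD. Srsf9 lies between 21.8 and 30.9 FPKM in wild type mice given AngII and between 5.22 and 7.71 in knockout mice given AngII, and Srsf4 splits into high and low libraries.

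The question of the knockout comparison was how loss of Rab22a changes the aorta with and without AngII. Under AngII all 10 SR genes were lower in knockout than in wild type mice, where 62% of 15010 tested genes were lower, and 1 of them, Srsf9, was called at an adjusted p under 0.05. In this comparison 1.83% of tested genes were called (59 higher and 216 lower), and 5 SR genes had p under 0.05 before adjustment, where 17.3% of genes did. The median difference of the SR genes was -0.47 on the scale of log2(FPKM + 1), against -0.10 for all genes tested. Scaling between libraries moved the background: after quantile normalization the all-gene median was 0.03, the calls split into 250 higher and 124 lower, and the SR median was -0.33 with all 10 still lower. A scaling in the manner of TMM (trimmed mean of M-values) gave 204 higher and 116 lower calls and an SR median of -0.37. The call rests on limma, fitted to all genes over 20 libraries, and these genes were chosen with such results known, so the counts are a description. Log2 differences with this pseudocount of 1 understate the change of low genes.

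Srsf9 is a small SR protein that binds purine-rich enhancers and is known to act on alternative exons. In wild type mice given saline its summed level was 23.9, 6.74, 7.99, 30.003 and 6.13 FPKM in mice 1 to 5. With AngII the wild type mice had 25.7, 30.9, 25.6, 21.8 and 29.5 FPKM. Knockout mice given saline had 8.88, 4.70, 10.01, 6.73 and 14.6 FPKM. Knockout mice given AngII had 5.22, 6.63, 6.46, 7.50 and 7.71 FPKM. Under AngII every wild type library lay above every knockout library, whereas under saline 2 wild type libraries were high and the other 3 lay within the knockout range.

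The means of Srsf9 under AngII were 26.7 ± 3.60 FPKM (SD, n = 5) in wild type against 6.71 ± 0.989 in knockout mice, a ratio of 3.98. Srsf9 was lower in these knockout mice by 1.85 ± 0.35 (SE) on the log2(FPKM + 1) scale, with an adjusted p of 0.0226 by limma. Under saline the difference was -0.47 ± 0.35 (adjusted p = 0.829). Within wild type mice the AngII difference was 1.07 ± 0.35 (adjusted p = 1.00 by limma), and in knockout mice it was -0.30 ± 0.35 (adjusted p = 0.991). The interaction, which tests whether the AngII response differed between the genotypes, was -1.38 ± 0.50 (adjusted p = 0.995 by limma). A dependence of the knockout difference on AngII is therefore not shown for Srsf9. The interaction was negative for 9 of 10 SR genes, where 59% of tested genes were, and was called for none of 15010 genes by limma.

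Almost all of Srsf9 came from its coding model Srsf9-201. Among mice given AngII, this model was lower by 1.96 ± 0.38 in knockout than in wild type mice (adjusted p = 0.0276 by limma). That model was 1 of 143 called among 25362 models tested (0.564%) and the only call among the 31 SR models tested, of which 25 were lower, where 60.8% of all models were. The noncoding models of Srsf9 stayed between 0.172 and 1.49 FPKM in every library, while their share of the gene was 3.58 ± 1.44% in wild type and 12.6 ± 9.86% in knockout mice given AngII. The ratio of noncoding to coding levels did not pass the test (1.82 ± 0.50, adjusted p = 0.215). The Srsf9 gene call was lost when wild type AngII mouse 1 or 2, or knockout AngII mouse 1, 2 or 3, was left out. Over all 10 single omissions the adjusted p ran from 0.0190 to 0.0748 and the difference from -1.91 to -1.77. The call of Srsf9-201 was lost in 8 of 10 omissions, all but those of wild type mouse 3 and knockout mouse 4.

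**Figure D2:**
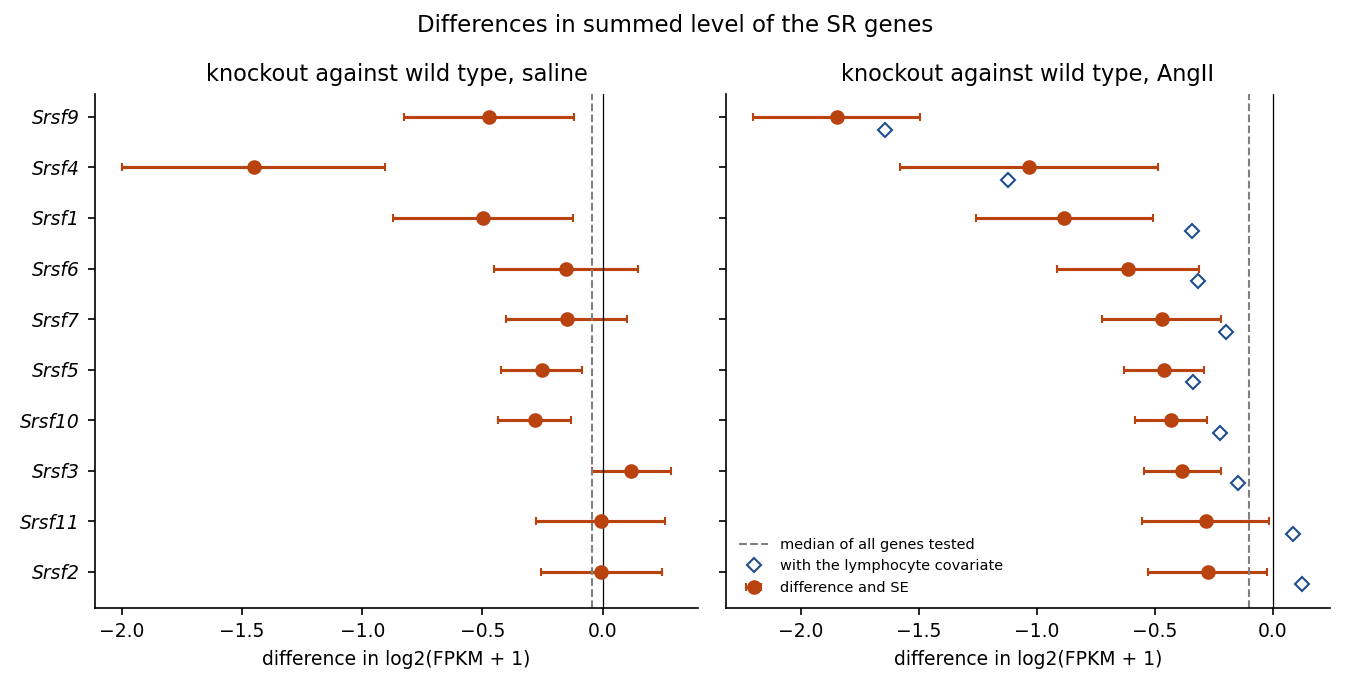
Difference in log2(FPKM + 1) between knockout and wild type mice (x axis) for each SR gene (y axis), under saline and AngII, as the limma estimate with its SE (5 mice per group). The dashed line is the median of all genes tested, and open diamonds give the AngII difference with lymphocyte markers as a covariate; Srsf9 stays at -1.64 while Srsf1 moves from -0.88 to -0.34.

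Srsf5 and Srsf10 were the other members whose libraries did not overlap between genotypes under AngII, so that 3 of 10 SR genes were apart, where 3.84% of tested genes were apart and lower. Srsf10, which acts as a splicing repressor when dephosphorylated, stood at 21.5, 23.9, 24.5, 21.4 and 27.5 FPKM in the wild type and at 12.2, 17.4, 20.4, 20.03 and 17.7 FPKM in knockout mice given AngII. Its difference of -0.43 ± 0.15 had an adjusted p of 0.152 by limma. Srsf5, which is among the SR genes that respond early to growth signals, stood at 39.4, 48.4, 36.3, 38.4 and 45.7 FPKM in the wild type and at 28.5, 30.4, 27.6, 30.8 and 31.7 FPKM in knockout mice. Its difference was -0.46 ± 0.17 (adjusted p = 0.164 by limma). The gaps between the groups were narrow, 20.4 against 21.4 FPKM for Srsf10 and 31.7 against 36.3 for Srsf5.

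Srsf1, the founding member of the family with roles in constitutive splicing, mRNA export and translation, differed by -0.88 ± 0.37 under AngII (adjusted p = 0.230). It stood at 5.76, 9.10, 15.05, 6.12 and 10.8 FPKM in the wild type and at 3.62, 3.03, 4.24, 4.95 and 6.41 FPKM in knockout mice, groups that overlapped. The retained intron model Srsf1-206 was its largest, with a mean of 3.73 FPKM and a range from 0.743 to 11.5. The coding model Srsf1-205 had 2.37 ± 1.06 FPKM in wild type against 0.588 ± 0.342 in knockout mice, a difference of -1.06 ± 0.26 that missed the threshold (adjusted p = 0.0626 by limma).

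Srsf3, a small SR protein that also couples splicing to mRNA export and 3′ end choice, differed by -0.38 ± 0.16 under AngII (adjusted p = 0.235). Srsf2, a marker of nuclear speckles that binds both purine- and pyrimidine-rich enhancers, differed by -0.28 ± 0.25 (adjusted p = 0.597). Srsf7, which carries a zinc knuckle beside its RNA recognition motif, differed by -0.47 ± 0.25 (adjusted p = 0.348). Srsf6, with tandem RNA recognition motifs like Srsf4 and Srsf5, differed by -0.61 ± 0.30 (adjusted p = 0.302), and Srsf11, an arginine- and serine-rich protein of the early spliceosome, by -0.28 ± 0.27 (adjusted p = 0.615). All 5 genes overlapped between the groups. The coding level of Srsf6 had a low set of 3 knockout libraries, saline mouse 5 (5.83 FPKM) and AngII mice 3 and 5 (6.47 and 6.77), while the other 17 libraries lay between 16.1 and 30.8.

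Under saline 9 of 10 SR genes had negative differences, where 57.1% of tested genes did and 0.0133% were called, and no SR gene was called. Srsf2, Srsf3 and Srsf11 had a higher mean FPKM in knockout mice, although the log2 difference was above 0 for Srsf3 alone. The median difference of the SR genes was -0.20, against -0.04 for all genes, and the count of lower SR genes was 7 under either scaling. In wild type mice 9 of 10 SR genes were higher with AngII than with saline (53.6% of all genes; median 0.13, all genes 0.02). In knockout mice 8 of 10 were lower with AngII (61.3% of all genes; median -0.22, all genes -0.06). No gene of the 15010 was called in either comparison by limma, while 458 (3.05%) and 595 (3.96%) had p under 0.05 before adjustment, among them 1 SR gene (Srsf9, in wild type) and 0 SR genes. The 2 AngII comparisons and the 2 knockout comparisons share groups of mice with each other.

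Srsf4, a long SR protein, split into high and low libraries. The Srsf9 level in wild type mice given saline and the Srsf6 coding level were also split, as given above. Its summed level was 5.64, 20.1, 35.1, 24.2 and 19.4 FPKM in wild type mice given saline, and 30.8, 31.3, 5.65, 5.66 and 30.7 FPKM with AngII. Knockout mice had 4.66, 13.7, 5.55, 4.36 and 4.83 FPKM with saline, and 3.83, 11.9, 5.20, 5.01 and 16.3 FPKM with AngII. Each group thus held libraries near 5 FPKM and others several times higher, and 3 of 10 wild type and 7 of 10 knockout libraries were low. The differences between the genotypes were -1.45 ± 0.55 under saline (adjusted p = 0.558 by limma) and -1.03 ± 0.55 under AngII (adjusted p = 0.343).

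The high Srsf4 libraries drew on different models. The coding model Srsf4-202 stood at 28.7 to 33.1 FPKM in 4 libraries, wild type saline mouse 3 and wild type AngII mice 1, 2 and 5, and at 2.05 to 3.74 FPKM in the other 16. Srsf4-201, the model with the other first exon printed above, stood at 9.11 to 19.5 FPKM in 6 libraries, 3 of wild type saline, 1 of knockout saline and 2 of knockout AngII mice, and at 0.268 to 1.92 in the other 14. In the remaining 10 libraries both were low. No knockout library had the coding model as the highest, against 4 of 10 wild type libraries.

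A search made after these values were seen, over 10950 unannotated models with a mean of at least 0.5 FPKM, found 1 model that stood at 11.1 to 24.9 FPKM in exactly those 10 libraries and at 0.402 to 2.96 FPKM in the others. It was the one most opposed to summed Srsf4 (Pearson r = -0.79, n = 20 libraries), and it carries neither a gene name nor coordinates, so whether it comes from the Srsf4 locus is not known. The sum of the 3 models varied less than Srsf4 itself, 27.9% against 77.4% over the 20 libraries. It averaged 26.1 ± 6.30 FPKM in wild type saline, 30.03 ± 2.08 in wild type AngII, 21.5 ± 5.91 in knockout saline and 16.8 ± 3.59 in knockout AngII mice (SD, n = 5 each). The same search gave a less variable sum for every SR gene, for Srsf1 19.7% in place of 56.3% and for Srsf9 52.7% in place of 68.1%. Each model was picked for opposing its gene, so a less variable sum follows in part from the choice. How reads were divided among the models, and its part in the Srsf4 pattern, was not tested.

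**Figure D3:**
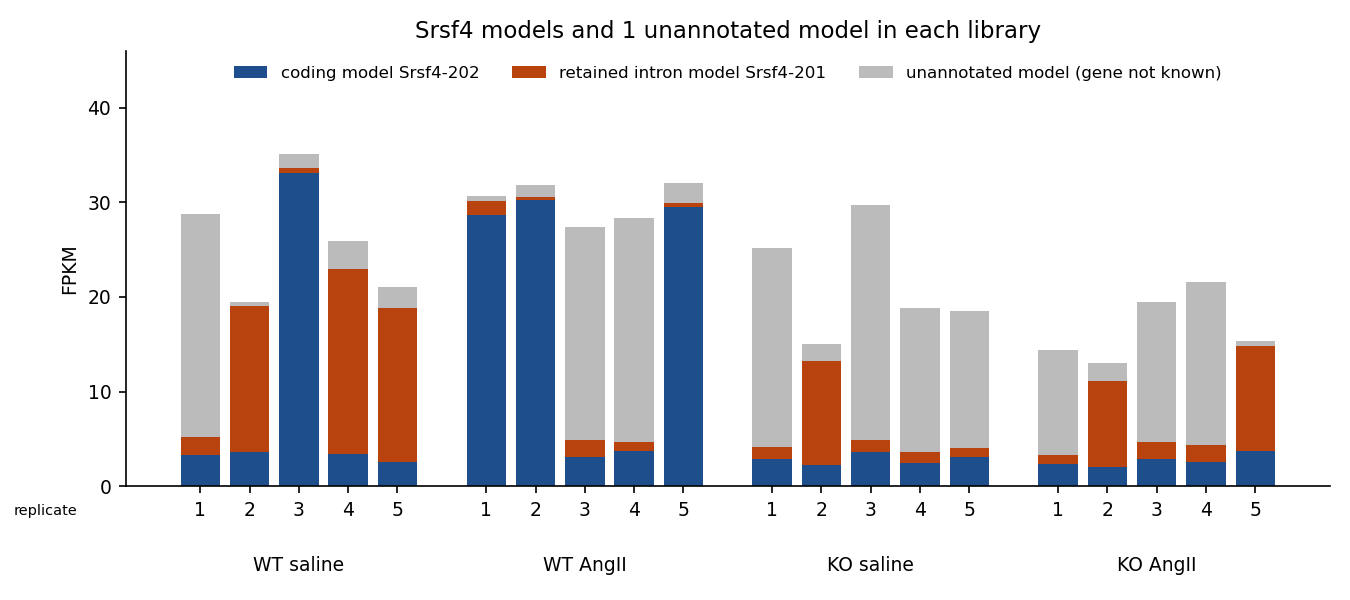
FPKM (y axis) of the coding model Srsf4-202, the retained intron model Srsf4-201 and 1 unannotated model, stacked for each of the 20 libraries (x axis, replicate within group). In every library 1 of the 3 models holds most of the bar: the coding one in 4, the retained intron one in 6 and the unannotated one in 10.

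Over the 9 SR genes with both kinds, noncoding levels were examined next. Noncoding sums were lower in knockout mice in 7 of 9 genes under saline and in 8 of 9 under AngII. Of 4215 genes with both kinds, 68.5% and 65.4% were lower. Lower noncoding sums were thus common to most genes, and with 9 SR genes the counts are a description. The level of noncoding Srsf3, nearly all of it the retained intron model Srsf3-204, was 1.71, 1.56, 2.22, 1.70 and 1.46 FPKM in wild type mice given saline. Knockout mice given saline had 1.32, 1.00, 1.10, 0.918 and 0.981 FPKM, all below every wild type library, as 2.49% of the 4215 genes were. Srsf3-204 differed by -0.42 ± 0.14 (adjusted p = 0.415 by limma) and, under AngII, by -0.45 ± 0.14 (adjusted p = 0.127).

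Srsf5 had the highest mean noncoding level of the SR genes in 3 of the 4 groups (in knockout mice given saline Srsf6 and Srsf11 were higher), mainly through Srsf5-212, Srsf5-206 and Srsf5-207. Its noncoding sum was 14.6, 9.01, 19.0, 14.4 and 5.28 FPKM in the wild type and 5.20, 5.35, 5.34, 6.18 and 4.95 FPKM in knockout mice given saline. The knockout libraries were close together, and wild type mouse 5 lay among them. With AngII the noncoding sum in knockout mice was 6.40, 9.38, 6.55, 9.86 and 6.58 FPKM, above every knockout library with saline, as in 0.403% of the 4215 genes. Srsf5-212 differed between the genotypes by -0.86 ± 0.27 under saline and by -0.79 ± 0.27 under AngII (adjusted p = 0.370 and 0.174 by limma).

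The ratio of noncoding to coding level was tested for the 9 SR genes among 4215 genes, on log2 values with a pseudocount of 0.5. None of the 9 was called by limma in any comparison, while 2 of the 9 had p under 0.05 in each knockout comparison, where 9.04% of ratios did under saline and 10% under AngII. For AngII against saline it was 2 of 9 in wild type (4.77% of ratios) and 0 of 9 in knockout mice (5.05%). The single call over all genes in each knockout comparison (0.0237%) was Rab22a itself. Under saline the knockout differences nearest the threshold were -0.67 ± 0.21 for Srsf3 (adjusted p = 0.313) and -1.06 ± 0.34 for Srsf5 (adjusted p = 0.320). The noncoding share of Srsf3 was 6.87 ± 1.68% in wild type and 3.87 ± 0.845% in knockout mice given saline, and that of Srsf5 was 33.5 ± 9.91% and 18.7 ± 4.00%. With AngII the ratio differences were smaller, -0.17 for Srsf3 and -0.43 for Srsf5.

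Srsf4 moved most in this ratio, by 3.16 ± 1.10 between knockout and wild type mice given AngII (adjusted p = 0.345 by limma) and by -3.15 ± 1.10 between AngII and saline in wild type mice (adjusted p = 0.930). Over the 10 genes together, noncoding models held 26.7 ± 3.16% of the FPKM in wild type saline, 20.5 ± 4.86% in wild type AngII, 20.9 ± 4.25% in knockout saline and 23.5 ± 4.28% in knockout AngII mice. Srsf4 alone had mean noncoding levels of 11.7, 1.77, 3.75 and 5.74 FPKM in the same order. The combined share therefore depends in part on Srsf4, and the share without it is not given here. In whole libraries, retained intron models held 3.42 ± 0.395% of annotated FPKM in wild type and 3.04 ± 0.448% in knockout mice given saline. With AngII the shares were 3.45 ± 0.352% and 3.08 ± 0.337%. Neither difference passed an exact two-sided permutation test (p = 0.198 and 0.127, 12 tests, adjusted p = 0.533 for both). The smallest p this test can give is 0.00794. Knockout libraries also held fewer models above 0, as given above, and the part of that in the noncoding SR levels was not tested.

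**Figure D4:**
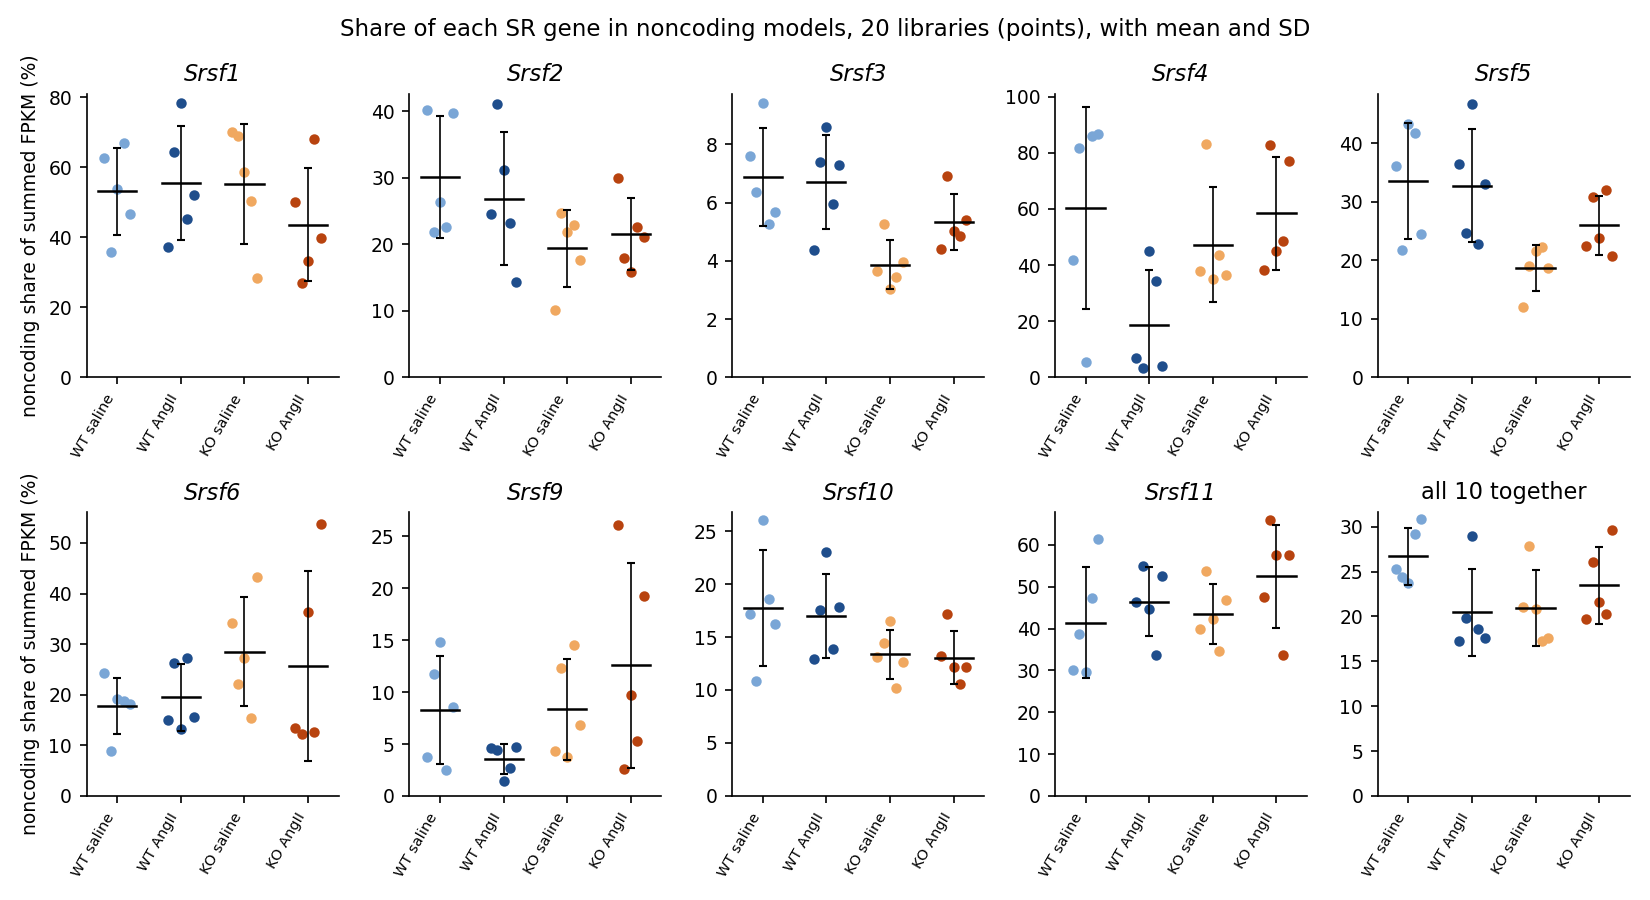
Percent of a gene's summed FPKM that lies in noncoding models (y axis, from 0) in the 4 groups (x axis), 1 point per mouse, with mean and SD, for 9 SR genes and for all 10 together. Srsf3 lies between 5.27% and 9.42% in wild type and between 3.02% and 5.25% in knockout mice given saline, and Srsf4 ranges from 3.23% to 86.7%.

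The levels of the SR genes were compared from library to library. Over 45 pairs of SR genes, Pearson's r of log2(FPKM + 1) across 20 libraries ran from -0.26 to 0.76 with a median of 0.49, and 21 pairs were over 0.5. Srsf4 had no pair over 0.5 (-0.26 to 0.43) and Srsf11 had 1. All other gene pairs were not computed, so these values have no background. Srsf2 was highest in wild type AngII mouse 5 (26.0 FPKM) and in knockout saline mice 3 and 1 (23.3 and 21.6), and Srsf3 was highest in those same 3 libraries (36.0, 36.2 and 36.0 FPKM). Those 3 libraries were also among the richest in lymphocyte transcripts.

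The mean level of 15 lymphocyte markers, 7 of B and plasma cells (such as Cd79a and Jchain) and 8 of T and NK cells (such as Cd3e and Nkg7), moved with the SR genes. The mean z-score of the 10 SR genes had r = 0.88 with it (Spearman 0.85, n = 20 libraries), 0.92 in the 10 wild type libraries and 0.88 in the 10 knockout libraries. In 5 knockout libraries the marker level lay under 2 on the log2 scale, and in the other 15 r was 0.77. Without the 2 libraries farthest from the median marker level, r was 0.87 over all groups, 0.80 in wild type, 0.81 in knockout libraries and 0.64 among the 15. Among single genes r was over 0.5 for 9 of 10 SR genes, from 0.51 for Srsf9 to 0.80 for Srsf10, and 0.24 for Srsf4. Of all tested genes 31.7% were over 0.5. The share of tested genes with a higher r than the SR gene ran from 13.0% for Srsf10 to 46.2% for Srsf4. The r of the mean z-score is that of an average of 10 genes and has no such background. These points share library preparation and scaling, and the relations are a description.

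The lymphocyte markers were unevenly spread over the groups. The B and plasma cell list summed to 102 to 619 FPKM in wild type saline, 265 to 608 in wild type AngII, 6.20 to 666 in knockout saline and 8.95 to 331 in knockout AngII mice. For the T and NK cell list the ranges were 33.7 to 242, 116 to 239, 5.61 to 397 and 5.46 to 236 FPKM. In the comparison of the genotypes under AngII, 7 of 7 B and plasma cell markers and 8 of 8 T and NK cell markers were lower in knockout mice (medians -1.96 and -1.84), 0 of them called. All 7 macrophage markers were lower too (median -0.81), as were 7 of 8 adipocyte markers (median -0.21) and 9 of 9 skeletal muscle markers (median -1.74), 0 of them called. Of the other lists, 3 of 8 smooth muscle, 3 of 7 endothelium, 3 of 7 fibroblast and 5 of 7 Schwann cell and neuron markers were lower. Under saline all lymphocyte and smooth muscle markers tested were lower in knockout mice. So were 6 of 7 macrophage, 6 of 8 adipocyte, 4 of 7 endothelium and 4 of 7 fibroblast markers. All 9 skeletal muscle and 7 Schwann cell and neuron markers were higher under saline (medians 0.84 and 0.44). The summed macrophage markers had r over 0.5 with 9 of 10 SR genes, from 0.25 for Srsf4 to 0.87 for Srsf2. The adipocyte markers (-0.06 to 0.48) and skeletal muscle markers (-0.36 to 0.24) had r over 0.5 with none. The share of all tested genes over 0.5 is not given here for these lists, so these counts have no background. The part of the marker lists other than the lymphocyte ones in the SR differences was not tested. In bulk tissue, fewer cells of a type cannot be told apart from less RNA per cell.

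With the lymphocyte marker level as a covariate, a fit added after the data were seen, 8 of 10 SR genes were still lower in knockout mice given AngII. Their median difference was -0.27, where all genes were at 0.00. Srsf9 remained called, at -1.64 (adjusted p = 0.0295 by limma). Srsf2 and Srsf11 changed sign to 0.12 and 0.08, and Srsf1, Srsf3 and Srsf10 came to -0.34, -0.15 and -0.22. Under saline, 5 of 10 SR genes were lower with the covariate, at a median of -0.03, where all genes were at 0.05. The covariate itself differs between the genotypes, so it also takes up part of any knockout difference that goes with it.

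**Figure D5:**
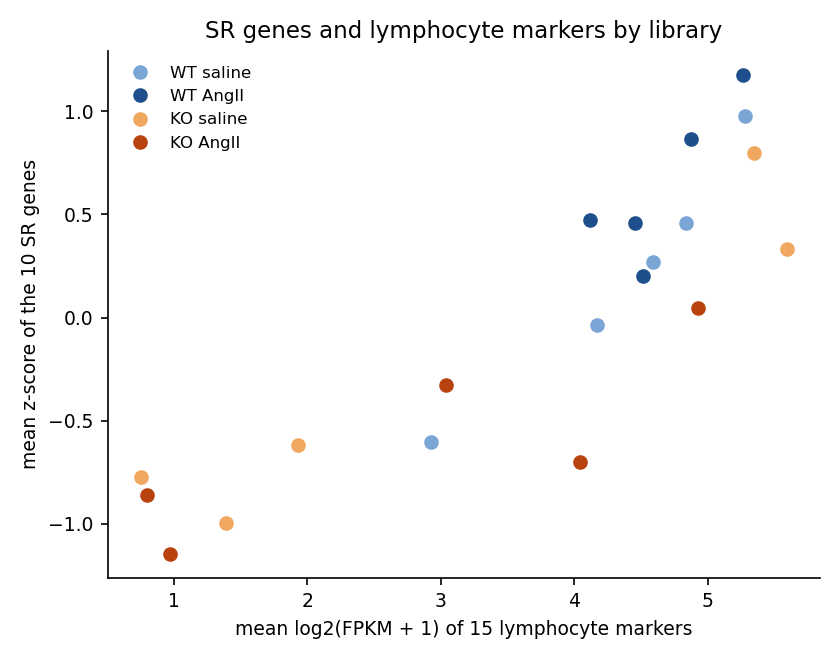
Mean z-score of the 10 SR genes (y axis) against the mean log2(FPKM + 1) of 15 lymphocyte markers (x axis), 1 point per library, coloured by group. The points rise together in each genotype, and 5 knockout libraries lie below 2 on the x axis.

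Of genes outside the family, the 5 whose levels were most like the mean z-score of the SR genes over 20 libraries were Nop2 (a nucleolar RNA methyltransferase), Cfl1 (cofilin, which severs actin filaments), Ddx41 (a DEAD-box helicase), Gm8730 and Pdia6 (a disulfide isomerase of the endoplasmic reticulum). Their r ran from 0.94 to 0.95.

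SR proteins are phosphorylated by the Srpk and Clk kinases, dephosphorylated by protein phosphatases and carried into the nucleus by transportin. Under AngII, 8 of 11 genes of this list were lower in knockout mice (median -0.50, all genes -0.10) and 1 was called. Over all tested genes 62% were lower and 1.83% were called, the background for this list and those below. That gene was Ppp1ca, a catalytic subunit of protein phosphatase 1, at 210 ± 24.5 FPKM in knockout and 323 ± 31.9 in wild type mice, a difference of -0.62 ± 0.13 (adjusted p = 0.0276 by limma). The Ppp1ca call was lost under both scalings, with the replicate block, with the compared groups alone and in 7 of 10 omissions of 1 library, all but those of wild type AngII mice 3 and 5 and knockout AngII mouse 4, with adjusted p up to 0.153. Clk1, a nuclear SR protein kinase, differed by -0.82 ± 0.22 under AngII (adjusted p = 0.0595) and by -1.12 ± 0.22 under saline (adjusted p = 0.144). With saline Clk1 had 44.5 ± 10.3 FPKM in wild type against 20.4 ± 7.65 in knockout mice. Clk4 differed by -0.57 ± 0.18 and -0.67 ± 0.18 in the same comparisons (adjusted p = 0.108 and 0.341).

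Among 20 tested SR-like and SR-related genes, 13 were lower in knockout mice given AngII (median -0.16) and none was called. The nearest were Rsrp1 (-0.76 ± 0.23, adjusted p = 0.0891 by limma), Tra2b (-0.60 ± 0.21, adjusted p = 0.144), whose protein activates exons together with SR proteins, and Rbm39 (-0.43 ± 0.16, adjusted p = 0.184). Of 10 splice site recognition genes 8 were lower and none was called. Of 21 hnRNP genes, whose proteins often oppose SR proteins at exons, 15 were lower and none was called, with Hnrnph1 at -0.81 ± 0.22 (adjusted p = 0.0618). Of 14 tested nonsense-mediated decay factors 9 were lower, and Upf3a was called (-0.43 ± 0.11, adjusted p = 0.0479 by limma). That call held in 4 of 20 alternatives, with adjusted p up to 0.226, and among omissions of 1 library only without wild type AngII mouse 3 or knockout AngII mouse 4. Under saline no gene of these 5 lists was called by limma.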

How the data were processed

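The authors deposited 1 table per library with a value for each of 126719 transcript models. The authors deposited these values already scaled, read here as FPKM (fragments per kilobase of transcript, scaled to library size). Times transcript length, 99.4% to 99.6% of the low values checked lay within 0.1 of a whole number of reads. The size of 1 read was fitted in each library to raise this percentage, so it is partly built in. Higher values were not tested in this way. The labels name no unit. The build mm10 and limma are named in the submitters' processing notes; how reads were aligned, assembled and quantified the sources used here do not give. Of 110082 Ensembl models 109913 matched GENCODE M21 and were summed per gene; 16637 unannotated models were left out. Coding means transcript type protein_coding.

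Genes and models reaching 1 FPKM in 5 or more libraries were fitted on log2(FPKM + 1) with limma 3.58.1 in R 4.3.3 (a mean per group, trend, robust), two-sided, Benjamini-Hochberg adjusted over all features (15010 genes, 25362 models, 4215 ratios). On simulated data for the AngII comparison of the genotypes (15010 genes), 63% of log2 1 and 82% of log2 2 changes were recovered, with 5.84% false calls. How these rates change where genes move together across libraries, split as Srsf4 does or spread unequally between groups was not tested. Shares were tested with exact permutation over 252 arrangements (scipy 1.17.1). All 10 SR genes were named, with some of their 28 models of mean at least 1 FPKM, up to 3 genes per list and the 5 most alike genes. Members and lists were chosen with earlier results of these data known. Alternatives were 2 scalings, 2 filters, another pseudocount, empirical Bayes without trend, compared groups alone, a replicate block, limma-voom on recovered reads, decay models counted as coding, each library left out and, added later, a lymphocyte covariate. Not every marker gene is named or reported singly here.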

Additional observations from a re-analysis of the deposited data

Results flagged for a closer look

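In 76 groups of 5 values (summed level and noncoding share of each SR gene), 3 single libraries stood far from the other 4, where chance flags about 1 in 20 groups, or 3.8. All 3 lay among knockout mice given saline. Srsf4 stood at 13.7 FPKM in mouse 2, with the others between 4.36 and 5.55. In the same library noncoding models held 83.3% of Srsf4, against 35.1% to 43.7% in the others, through the model Srsf4-201. Srsf5 stood at 43.0 FPKM in mouse 1, with the others between 24.8 and 28.1. Mouse 1 was among the libraries rich in lymphocyte markers, and the part of these in the Srsf5 value was not tested.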

How the results depend on the processing

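Calls over all genes, models or ratios moved with the processing; the cause was not tested except where a setting tests fewer or more features. The call of Srsf9 under AngII held in each of the 10 alternatives other than the omissions of 1 library. Its adjusted p ran from 0.000623, with the compared groups alone, to 0.0493, with the replicate block. All 10 SR genes stayed lower except with the lymphocyte covariate, where Srsf2 and Srsf11 reversed to 0.12 and 0.084. Gene calls between the genotypes under AngII numbered 275, and 1 with the compared groups alone, 165 with limma-voom on recovered reads and 528 (216 higher, 312 lower) with the covariate. Under saline 2 genes were called, and 1 under quantile normalization, the 5 FPKM filter, the compared groups alone and limma-voom, 20 with no filter and 244 with the covariate. With no filter, 11 genes and 14 models were called for AngII in wild type mice (0 of each as reported) and 1 gene and 1 model in the interaction. With the compared groups alone 2 models were called for AngII in wild type and 0 in knockout mice. Model calls between the genotypes under saline were 18, and 11 with TMM-like scaling, 10 at 5 FPKM and 7 with the groups alone. Under AngII they were 143, and 257 at 5 FPKM and 12 with the groups alone. Ratio calls for AngII in wild type mice were 0, and 1 with TMM-like scaling, without trend or with a pseudocount of 0.1. Between the genotypes under saline they were 1, and 3 at 5 FPKM and 2 with the groups alone, and 0 under both treatments with decay models counted as coding.

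Replicate numbers were shared between groups by number only: correlations of same-numbered deviations ran from -0.52 to 0.39. With a replicate block the gene calls were 1 under saline and 70 under AngII, model calls 6 and 20, and ratio calls 2 under saline. Srsf9 kept its call with the block (adjusted p = 0.0493), and Srsf9-201 did not (0.0720), nor with no filter (0.0632).

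When 1 library was left out, gene calls ranged from 0 to 1 for AngII in wild type mice, 0 to 4 in knockout mice, 1 to 4 between the genotypes under saline and 9 to 491 under AngII, and stayed 0 in the interaction. The AngII count rose to 491 without wild type AngII mouse 3, stayed within 1.5 times of 275 without knockout AngII mouse 4 (377), and was lower without each of the other 8. Model calls ranged from 0 to 2, 1 to 2, 3 to 31, 15 to 323 and 0 to 1 in the same order, and ratio calls from 0 to 1, 0 to 1, 1 to 2, 1 to 2 and 0. For AngII in wild type mice the difference in library share, in percentage points, ranged from -0.11 to 0.13 for retained intron, -0.055 to 0.023 for decay and -0.20 to 0.13 for all noncoding models. In knockout mice it ranged from -0.066 to 0.24 for retained intron and -0.16 to 0.24 for noncoding models. Between the genotypes under saline, decay models ranged from -0.076 to 0.0036. Each SR gene had at least 314 reads in each library; how depth limits single models was not tested.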
